A study of Jatropha curcas with 22 samples.

Results

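Expansins and xyloglucan enzymes are the proteins that loosen, cut, rejoin and build the hemicellulose network of the plant cell wall. The genes described here are those whose deposited description holds the word "expansin" or "xyloglucan", in upper or lower case. This rule found 75 of 57437 gene models of Jatropha curcas: 33 expansins and 42 xyloglucan enzymes. By their descriptions the expansins are 21 alpha-expansins, 3 beta-expansins, 6 expansin-like or expansin-related genes and 3 whose type is not given. The xyloglucan enzymes are 28 xyloglucan endotransglucosylase/hydrolases (XTHs), 8 xyloglucan galactosyltransferases, 2 other xyloglucan glycosyltransferases and 4 others. The descriptions name families by similarity, so a number such as that of alpha-expansin 5 does not give the function of the Jatropha gene.

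Growing plant cells enlarge when turgor stretches a wall that has been loosened. Expansins loosen the wall at acid pH without cutting its polymers, and alpha-expansins are the class best known from growing leaves and roots. XTHs cut the backbone of xyloglucan, the main hemicellulose of dicot primary walls, and rejoin it to another chain or to water. Xyloglucan glycosyltransferases work earlier, in the Golgi: some build the backbone, and galactosyltransferases such as Arabidopsis MUR3/KATAMARI1 add galactose to its side chains. Expansin-like proteins share the fold of expansins, and a loosening activity has not been established for them.

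Jatropha curcas is an oilseed shrub that tolerates drought. The plants were seedlings of a Cape Verde islands strain, 36 days old when the experiment began, and no transgene or mutant is named. RNA from young leaves and from root tips was sequenced in 22 libraries, 12 of leaf and 10 of root, in 11 groups of 2. Both organs have moderate drought (13 days without water) with watered controls of day 13, severe drought (49 days without water), rewatered plants labelled day 52, and watered controls under the joint label of days 49 and 52, called late controls here. Leaf also has a control of day 0. Each library pooled 6 plants at days 0 and 49 and 3 plants at days 13 and 52; the pool size of the late controls is not stated. The labels do not say whether the libraries of a group came from separate sets of plants, so every p-value measures only the spread between these libraries. The labels give 7 days of rewatering in the protocol and 3 days by the day numbers.

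Libraries held 37104762 to 82215677 reads, of which the 75 genes took 0.0957% to 0.258%. Levels of 1 gene across libraries are given as CPM, read counts scaled by library total, in the order replicate 1 and replicate 2. A gene is called higher or lower at an adjusted p under 0.05 in edgeR's quasi-likelihood test, adjusted by Benjamini-Hochberg over all genes of the fit, and a value after ± is the SE. Photosynthetic markers separated leaf from root in all 22 libraries: 18 genes summed to 11153 to 19729 CPM in leaf and 56.3 to 136 CPM in root. The casparian strip genes of the root endodermis, 2 in number, summed to 0.107 to 0.393 CPM in leaf and to 56.6 and 81.4 CPM in the day 13 root controls. In root they were at 10.8 and 2.63 CPM in the late controls and at 0.344 and 0.516 CPM under severe drought. Replicate 1 of severe root lay within the leaf range, so the casparian strip genes did not separate it from leaf. The late root controls also had reads on 40952 and 38267 gene models, more than any other library. In whole organs, fewer cells of a type and less RNA per cell cannot be told apart.

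Only 1 of the 75 genes, an alpha-expansin (Jcr4S08285.30), had no read in any library, and 4 had no read in leaf. Of the 75, 50 passed the filter on low counts in leaf and 62 in root. Levels of different genes were compared on the deposited RPKM scale, on which the lowest value is 1.0 and stands for 0 reads. In leaf the highest level belonged to XTH 9 (Jcr4S15568.20), with a mean of 357 RPKM and a range of 270.3 to 560.5 over the 12 libraries. The expansin alpha gene Jcr4S02633.40 followed with a median of 250 RPKM and alpha-expansin 1 (Jcr4S03648.20) with 222 RPKM. These 2 had wide ranges, 5.2 to 371.5 and 17.9 to 342.4 RPKM, and the ranges overlapped that of XTH 9. The expansin gene Jcr4S01681.30 and beta-expansin 3 (Jcr4S00098.130) came next, with medians of 141 and 99.2 RPKM. In root, XTHs took the first 6 places. XTH 2 (Jcr4S00216.90) had a mean of 192 RPKM, XTH 9 of 173 RPKM and another XTH 2 (Jcr4S09899.10) of 169 RPKM, with ranges of 79.8 to 313.9, 106.3 to 279.1 and 41.4 to 270.3 RPKM, so their order is not beyond the spread. Among root expansins Jcr4S01681.30 had the highest mean, 72.6 RPKM with a range of 40.2 to 116.9. That order is not beyond the spread: alpha-expansin 11 (Jcr4S00828.30) ranged from 1.5 to 123.7 RPKM and expansin-related protein 3 (Jcr4S02432.10) from 1.6 to 259.6 RPKM.

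Between leaf and root, more members were called lower in leaf than higher. In the day 13 controls, 29 of 64 tested genes were lower in leaf than in root and 11 were higher, while over all genes tested 29.7% were lower and 29.0% higher. Of these 64 members, 14 passed the filter on low counts within root only and 2 within leaf only, so the count draws on genes admitted through the organ where they are high. Among the 48 that passed within both organs, 20 were lower in leaf and 9 higher, against 27.5% lower and 31.4% higher of all genes that passed within both. The median log2 difference, leaf over root, was -0.92 for these 48 and 0.07 for those genes. XTH 2 (Jcr4S03222.50) stood at 0.562 and 1.09 CPM in leaf and at 159.6 and 126 CPM in root, a 173-fold difference (log2 -7.44 ± 0.37, adjusted p = 6e-10). Alpha-expansin 12 (Jcr4S17116.20) stood at 0.0225 and 0.231 CPM in leaf and at 38.1 and 32.5 CPM in root (log2 -8.10 ± 1.18, adjusted p = 3.5e-05). Both genes were near the floor in leaf. Over all root libraries XTH 2 (Jcr4S03222.50) ranged from 12.9 to 128.4 RPKM, and alpha-expansin 12 from 1.2 to 51.3 RPKM with a median of 6.5.

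In the opposite direction, alpha-expansin 5 (Jcr4S00998.80) stood at 58.0 and 58.4 CPM in leaf and at 1.25 and 0.86 CPM in root, 54.2-fold higher in leaf (log2 5.76 ± 0.32, adjusted p = 1.4e-09). The katamari1 homolog galactosyltransferase Jcr4S01196.30 stood at 38.2 and 33.4 CPM in leaf and at 0.513 and 0.86 CPM in root (log2 5.73 ± 0.48, adjusted p = 9.9e-08). With the late controls in place of the day 13 controls, 19 of the 64 members were higher in leaf and 31 lower, against 31.2% higher and 31.7% lower over all genes.

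Under moderate drought in leaf, none of the 50 members that passed the filter on low counts was called in edgeR's test. Of these members 11 had an unadjusted p under 0.05, and DESeq2 and limma also called 0. Without that filter 3 members were called higher and 5 lower, and without replicate 1 of the day 13 controls 1 was called lower. Over all leaf genes, 0.00431% were called higher and 0.0% lower. The smallest unadjusted p among the members belonged to the katamari1-like galactosyltransferase Jcr4S16227.10, with 0.113 and 0.208 CPM in controls and 0.709 and 0.85 CPM under moderate drought (log2 2.26 ± 0.52, adjusted p = 0.23).

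Severe drought lowered the expansins that dominate young leaves. In leaf 25 of 50 tested members were lower than in the late controls and 7 were higher, against 29.5% lower and 27.6% higher over all genes. The median log2 change was -0.90 for the members and 0.03 for all genes. The number higher was 4 without replicate 1 and 4 without replicate 2 of the late controls. Alpha-expansins were lower in 7 of 14 tested genes and higher in 0, with 8 of the 14 at an unadjusted p under 0.05. The 21 alpha-expansins together summed to 847 and 763 CPM in the late controls and to 108 and 80.9 CPM under severe drought.

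**Figure D1:**
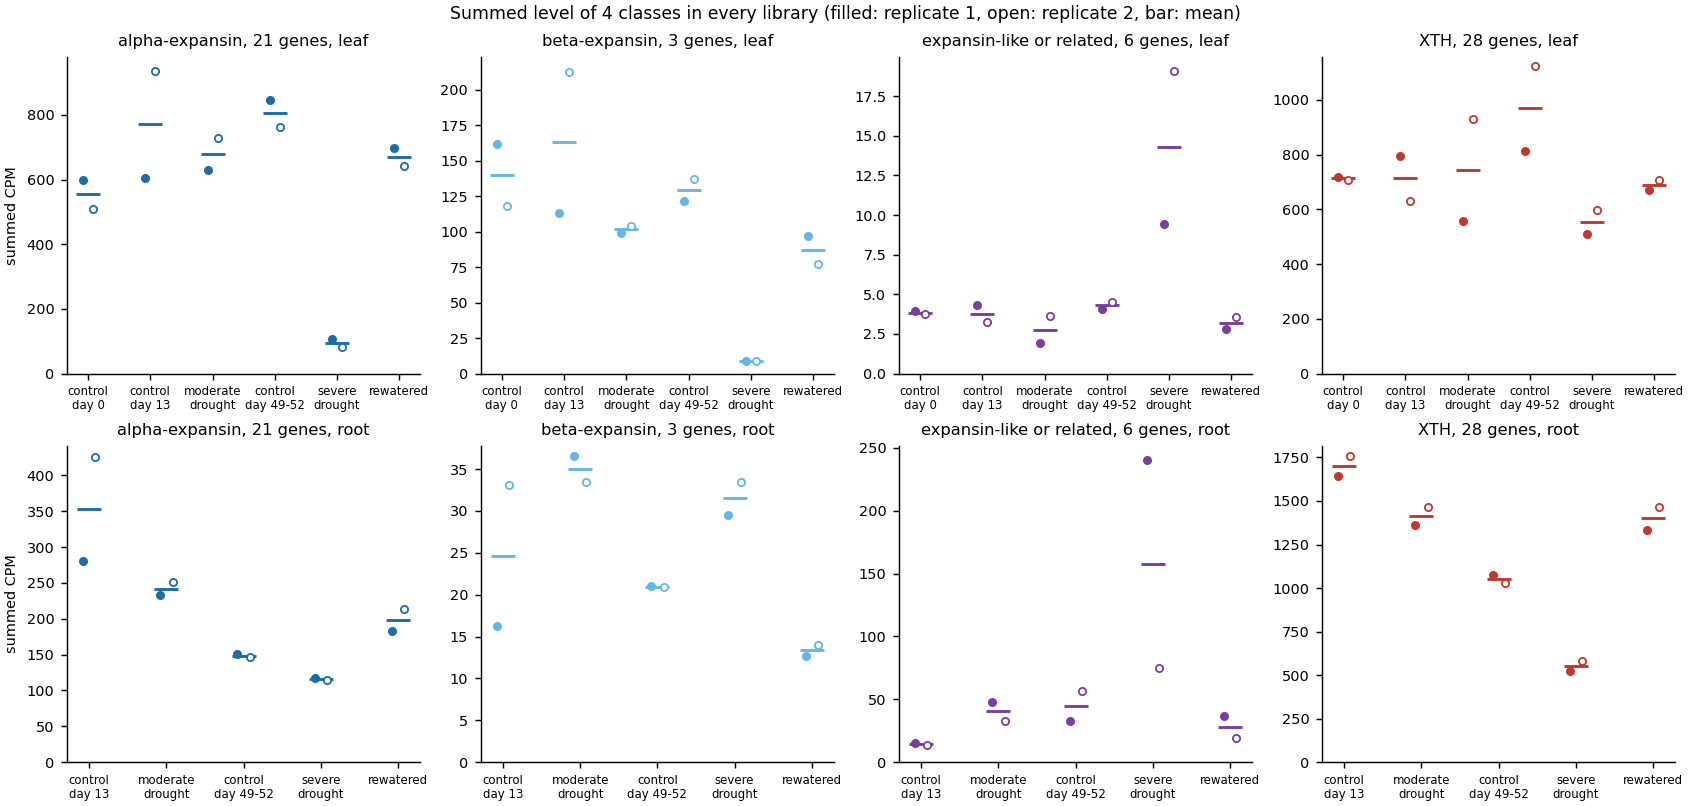
Summed CPM (vertical axis, starting at 0) of the alpha-expansins, beta-expansins, expansin-like or related genes and XTHs in each library, leaf above and root below, with the groups along the horizontal axis; filled points are replicate 1, open points replicate 2 and bars the mean. In leaf the alpha-expansins sum to 108 and 80.9 CPM under severe drought and to 847 and 763 CPM in the late controls.

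The expansin alpha gene Jcr4S02633.40 stood at 355 and 224 CPM in late controls and at 21.3 and 4.53 CPM under severe drought, a 22.5-fold fall (log2 -4.49 ± 0.62, adjusted p = 0.00023). Alpha-expansin 1 (Jcr4S03648.20) stood at 303 and 332 CPM in late controls and at 22.6 and 17.5 CPM under severe drought (log2 -3.99 ± 0.28, adjusted p = 1.4e-06). Alpha-expansin 5 (Jcr4S00998.80) stood at 89.7 and 111 CPM in late controls and at 3.63 and 4.53 CPM under severe drought (log2 -4.62 ± 0.23, adjusted p = 8.9e-08). In all 3 genes the severe libraries lay below every other leaf library, the day 0 and day 13 groups included. Not every alpha-expansin fell so far: alpha-expansin 13 (Jcr4S05595.30) went from 57.7 and 52.1 CPM to 31.2 and 27.7 CPM (log2 -0.90 ± 0.13, adjusted p = 0.00017), and alpha-expansin 20 (Jcr4S01988.70) stood at 8.98 and 10.3 CPM in late controls and at 8.29 and 8.87 CPM under severe drought.

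The other expansin classes took different directions. Beta-expansin 3 (Jcr4S00098.130), the 1 beta-expansin tested in leaf, stood at 122 and 137 CPM in late controls and at 8.85 and 9.04 CPM under severe drought (log2 -3.86 ± 0.29, adjusted p = 2.6e-06). The expansin gene Jcr4S01681.30 stood at 232 and 251 CPM in late controls and at 24.0 and 17.1 CPM under severe drought (log2 -3.55 ± 0.18, adjusted p = 1.2e-07). Both fell more than 10-fold, to levels below every watered leaf library. Against 27.6% higher and 29.5% lower over all leaf genes, expansin-like or related genes were called higher in 3 of 4 tested genes and lower in 0. Of these, the expansin-like gene Jcr4S27128.10 stood at 2.88 and 3.18 CPM in late controls and at 7.44 and 5.85 CPM under severe drought (log2 1.13 ± 0.28, adjusted p = 0.0056). The call on the expansin-like gene Jcr4S01419.50 (log2 1.21 ± 0.46, adjusted p = 0.042) was lost without any 1 of the 4 libraries compared, with adjusted p of 0.065 to 0.19. Expansin-related protein 3 (Jcr4S02432.20) was the third call (adjusted p = 0.021), with overlapping groups: it stood at 0.162 and 9.82 CPM under severe drought and at 0.32 and 0.146 CPM in late controls.

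**Figure D2:**
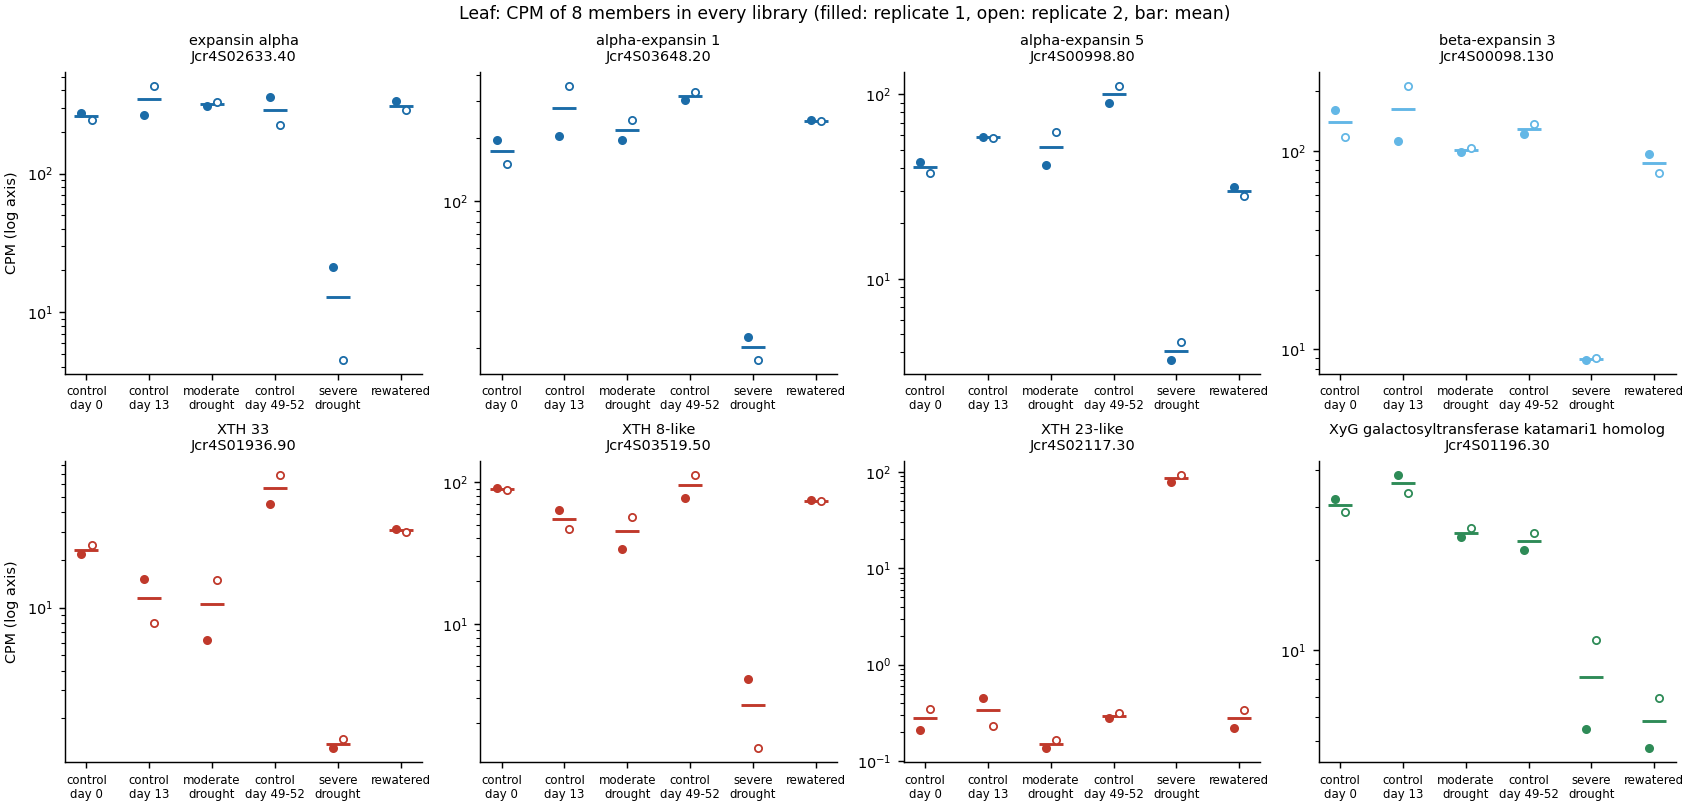
CPM (vertical log axis) of 8 members in each leaf library, with the groups along the horizontal axis; filled points are replicate 1, open points replicate 2 and bars the mean. The expansins, XTH 33 and XTH 8-like fall under severe drought and rise again after rewatering, not all of them to the level of the late controls. XTH 23-like goes the other way, and the katamari1 homolog stays low after rewatering.

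XTHs moved in both directions in severely droughted leaf: 9 of 20 tested genes were lower and 3 higher. Over all genes 29.5% were lower and 27.6% higher. The sum over the 28 XTHs was 509 and 596 CPM against 813 and 1125 CPM in late controls. XTH 33 (Jcr4S01936.90), whose Arabidopsis namesake is anchored in the plasma membrane, stood at 45.4 and 69.2 CPM in late controls and at 1.29 and 1.47 CPM under severe drought (log2 -5.37 ± 0.48, adjusted p = 9.9e-06). XTH 8-like (Jcr4S03519.50) stood at 77.0 and 113 CPM in late controls and at 4.07 and 1.32 CPM under severe drought (log2 -5.14 ± 0.48, adjusted p = 1.5e-05). XTH 9 (Jcr4S15568.20), the most abundant member per length, fell far less, from 497 and 747 CPM to 297 and 303 CPM (log2 -1.05 ± 0.28, adjusted p = 0.0078).

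XTH 23-like (Jcr4S02117.30) showed the largest rise of any member tested in leaf. It stood at 0.277 and 0.316 CPM in late controls, at 79.7 and 94.1 CPM under severe drought and at 0.219 and 0.336 CPM after rewatering. The rise was 292-fold (log2 8.19 ± 0.32, adjusted p = 1.6e-08), and the fall on rewatering was 329-fold (log2 -8.36 ± 0.32, adjusted p = 1.3e-08). In the other 10 leaf libraries the gene stayed at 0.135 to 0.454 CPM. The XTH 2 family gene Jcr4S02181.40 also rose, from 29.8 and 41.9 CPM to 57.6 and 122 CPM (log2 1.33 ± 0.29, adjusted p = 0.0031). The call on xyloglucan endotransglycosylase 2 (Jcr4S06010.60, log2 1.68 ± 0.54, adjusted p = 0.02) was lost without replicate 1 of severe drought (adjusted p = 0.12) and without replicate 1 (0.055) or replicate 2 (0.12) of the late controls, and in DESeq2 (0.064).

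A group of 6 XTHs shares the first part of its identifiers, Jcr4S00292, and did not move as 1 block; its members other than Jcr4S00292.60 are named after their values were seen. XTH 22 (Jcr4S00292.60) stood at 11.5 and 13.1 CPM in late leaf controls and at 0.601 and 0.564 CPM under severe drought (log2 -4.40 ± 0.37, adjusted p = 4.5e-06). Jcr4S00292.50 and Jcr4S00292.80 were also lower, with log2 changes of -3.21 ± 0.42 (adjusted p = 0.00011) and -1.81 ± 0.50 (adjusted p = 0.01). Jcr4S00292.70 stood at 5.40 and 5.93 CPM in late controls and at 5.45 and 4.86 CPM under severe drought. Jcr4S00292.90 was below 1 CPM in all leaf libraries, and Jcr4S00292.40 had no leaf read. XTH 23-like shares its first part with XTH 22 (Jcr4S02117.10) and with Jcr4S02117.40, described as a xyloglucan endo-1 family protein. In leaf XTH 22 (Jcr4S02117.10) had 0.341 and 0.437 CPM in late controls and 0.347 and 1.65 CPM under severe drought (adjusted p = 0.092), and Jcr4S02117.40 had no read in either group.

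Genes that build xyloglucan were lower under severe drought in leaf wherever they were called. Of 5 galactosyltransferases tested, 4 were lower and 0 higher, and both other glycosyltransferases were lower, against 29.5% lower and 27.6% higher over all genes. The katamari1 homologs Jcr4S01196.30 and Jcr4S01196.40 were at 21.6 and 24.6 CPM and at 3.46 and 4.50 CPM in late controls. Under severe drought they were at 5.45 and 10.8 CPM and at 0.739 and 1.54 CPM (log2 -1.51 ± 0.28, adjusted p = 0.001, and log2 -1.80 ± 0.34, adjusted p = 0.0011). The probable xyloglucan glycosyltransferase 6-like (Jcr4S27017.10), named like the Arabidopsis enzymes that make the glucan backbone, went from 0.939 and 0.559 CPM to 0.231 and 0.303 CPM (log2 -1.48 ± 0.42, adjusted p = 0.011). The gene described only as "xyloglucan 6-" (Jcr4S00218.120) fell by 0.64 on the log2 scale (SE 0.13, adjusted p = 0.0019). The gene described as xyloglucanase 113 (Jcr4S05786.10), a name that does not establish its activity, was slightly higher. It stood at 67.2 and 64.8 CPM in late controls and at 89.9 and 91.0 CPM under severe drought (log2 0.45 ± 0.11, adjusted p = 0.0053).

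Other transcripts moved in the same leaves. Of 79 tested genes listed for dividing cells (cyclins, histones and kinesins, by description), 60 were lower and 5 higher under severe drought. The 88 genes of the list summed to 8714 and 10086 CPM in late controls and to 2192 and 2201 CPM in severe leaf. The list took kinesins of every kind, also a gene named for chloroplast movement, so it is not specific to division. Genes with pollen in their description, a list that includes expansin-like pollen allergens, were lower in 10 of 15 and higher in 4, with sums of 982 and 1172 CPM in late controls and 269 and 208 CPM under severe drought. The 18 photosynthetic genes summed to 13923 and 18141 CPM in late controls and to 11933 and 12672 CPM under severe drought. The part of these changes in the results on expansins and XTHs was not tested.

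Many leaf members rose on rewatering. Against severe drought, 20 of 50 members were higher and 11 lower in rewatered leaf, with 29.1% higher and 30.2% lower over all genes. The median log2 change was 0.36 for the members and -0.04 for all genes. The number lower was 6 without replicate 1 of the rewatered libraries and 7 without replicate 2. In the same comparison the dividing-cell genes were higher in 62 of 79 and lower in 6, with sums of 8850.4 and 8034 CPM in rewatered leaf, and the pollen list was higher in 8 of 15 and lower in 3, with sums of 775 and 755 CPM. Their part in the members' changes was not tested. This comparison and that of severe drought with its controls share the severe libraries, so the levels are set side by side. The expansin alpha gene Jcr4S02633.40 was at 332 and 287 CPM after rewatering, alpha-expansin 1 (Jcr4S03648.20) at 243 and 241 CPM and beta-expansin 3 (Jcr4S00098.130) at 96.8 and 77.4 CPM. XTH 33 (Jcr4S01936.90) was at 31.5 and 30.0 CPM and XTH 8-like (Jcr4S03519.50) at 74.4 and 73.0 CPM. The rise from severe drought was 24.0-fold for Jcr4S02633.40 (log2 4.59 ± 0.62, adjusted p = 0.00019) and 27.5-fold for Jcr4S03519.50 (log2 4.78 ± 0.47, adjusted p = 2e-05).

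Rewatered leaf was below the late controls for a few members. Against the late controls, 6 of 50 members were lower in rewatered leaf and 0 higher, where 3.79% of all genes were lower and 0.772% higher; DESeq2 and limma also called 0 members higher, and 13 members had an unadjusted p under 0.05 in either direction. Without replicate 1 or replicate 2 of the rewatered libraries 1 member was lower, and without replicate 2 of the late controls 3. Of these 6, alpha-expansin 5, Jcr4S01681.30 and both katamari1 homologs had also been lower under severe drought. The expansin gene Jcr4S01681.30 stood at 232 and 251 CPM in late controls and at 144 and 154 CPM after rewatering (log2 -0.70 ± 0.17, adjusted p = 0.043). Its call was lost with the day 13 controls (log2 -0.17, adjusted p = 0.54), in both limma fits (0.084 and 0.089) and in one fit over all 22 libraries (0.21). It was also lost without replicate 2 of the late controls (0.21) and without replicate 1 (0.27) or replicate 2 (0.25) of the rewatered libraries. The other two had not: the XTH 2 family gene Jcr4S02181.40 was higher under severe drought, and the katamari1-like galactosyltransferase Jcr4S16227.10 stood at 0.469 and 0.778 CPM in late controls, 1.02 and 0.802 CPM under severe drought and 0.129 and 0.028 CPM after rewatering. The call on Jcr4S16227.10 (log2 -2.73 ± 0.56, adjusted p = 0.026) was lost with the day 13 controls (0.44), without replicate 2 of the late controls (0.17) and without replicate 1 (0.088) or replicate 2 (0.2) of the rewatered libraries. The katamari1 homologs Jcr4S01196.30 and Jcr4S01196.40 stood at 4.71 and 6.91 CPM and at 0.772 and 0.924 CPM after rewatering, as low as under severe drought. Their log2 changes against late controls were -2.00 ± 0.28 (adjusted p = 0.0068) and -2.24 ± 0.35 (adjusted p = 0.0094). Without replicate 1 of the rewatered libraries the adjusted p rose to 0.088 and 0.13, and without replicate 2 that of Jcr4S01196.40 rose to 0.11. Whether the katamari1 homologs share reads was not tested.

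Alpha-expansin 5 (Jcr4S00998.80) came back in part, to 31.5 and 28.2 CPM against 89.7 and 111 CPM in late controls (log2 -1.75 ± 0.20, adjusted p = 0.002, and 0.054 without replicate 2 of the rewatered libraries). The XTH 2 family gene Jcr4S02181.40 fell below the late controls, to 10.6 and 8.37 CPM (log2 -1.91 ± 0.30, adjusted p = 0.011). Its call was lost without replicate 2 of the late controls (0.086) and without replicate 1 (0.084) or replicate 2 (0.15) of the rewatered libraries. Between the late and the day 13 leaf controls, 1 member was called higher and 0 lower, against 0.25% and 0.263% of all genes. That member was XTH 33 (Jcr4S01936.90), at 15.1 and 8.04 CPM at day 13 (log2 2.31 ± 0.40, adjusted p = 0.044), and its call was lost without replicate 2 of either control (0.16 for day 13, 0.10 for the late controls). At an unadjusted p under 0.05 there were 11 members, and DESeq2 called 3 higher and 1 lower.

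Under moderate drought, the earliest drought stage sampled, a few root members were called. Of 62 tested members 3 were higher and 3 lower than in the day 13 controls, against 1.98% higher and 0.754% lower over all genes. Without replicate 2 of the day 13 controls 0 members were called in either direction, and without replicate 1 of the droughted libraries 1 was higher and 0 lower; without replicate 1 of the controls 5 were higher and 6 lower. Without replicate 2 of the droughted libraries 5 were lower. Both beta-expansins with almost no reads in day 13 controls rose. Beta-expansin 3 (Jcr4S08184.10) stood at 0.0558 and 0.112 CPM in controls and at 6.23 and 1.33 CPM under moderate drought (log2 5.53 ± 0.82, adjusted p = 0.029). This call was lost in both limma fits (adjusted p = 0.14 and 0.11) and without replicate 2 of the controls (log2 5.99). The second, Jcr4S02502.50, had 1 read in both controls together and 90 reads under moderate drought (adjusted p = 0.032). This call was lost in both limma fits (adjusted p = 0.11 and 0.093). It was also lost without replicate 2 of the controls and without replicate 1 of the droughted libraries. Whether these beta-expansins share reads was not tested. The expansin-like gene Jcr4S27128.10 went from 9.80 and 7.57 CPM to 18.2 and 15.1 CPM (log2 0.94 ± 0.18, adjusted p = 0.043). This call was lost without replicate 2 of the controls (log2 0.74) and without replicate 1 of the droughted libraries (log2 0.8).

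The 3 lower genes were the expansin alpha gene Jcr4S02633.40, XTH 9 (Jcr4S15568.20) and Jcr4S14858.20, described as a xyloglucan endo-1 family protein. Jcr4S02633.40 stood at 37.5 and 78.1 CPM in controls and at 10.8 and 15.1 CPM under moderate drought (log2 -2.16 ± 0.33, adjusted p = 0.03). XTH 9 stood at 268 and 356 CPM in controls and at 134 and 152 CPM under moderate drought (log2 -1.13 ± 0.19, adjusted p = 0.034). Jcr4S14858.20 stood at 10.8 and 11.1 CPM in controls and at 0.974 and 2.12 CPM under moderate drought (log2 -2.82 ± 0.43, adjusted p = 0.03). The droughted libraries lay below both controls in all 3, and each call was lost without replicate 2 of the controls (adjusted p of 0.10, 0.13 and 0.13) and without replicate 1 of the droughted libraries (0.19, 0.22 and 0.13).

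Under severe drought root members moved in both directions, with more calls lower than higher. Of 62 members 20 were lower and 8 higher than in late controls, against 25.6% lower and 19.5% higher over all genes. The median log2 change was -0.60 for the members and -0.04 for all genes. The number higher was 2 without replicate 1 and 3 without replicate 2 of the late controls, and the number lower was 13 without replicate 1 of severe drought. Against the day 13 controls 27 were lower and 10 higher, with 28.4% lower and 26.1% higher over all genes. XTHs were lower in 9 of 24 and higher in 3, and their 28 genes summed to 1076 and 1029 CPM in late controls and to 522 and 579 CPM under severe drought.

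XTH 32 (Jcr4S00360.50) had the largest fall among well expressed root XTHs, from 78.1 and 50.9 CPM to 8.58 and 8.43 CPM (log2 -2.92 ± 0.26, adjusted p = 0.00021). The root-enriched XTH 2 genes fell together. Jcr4S03222.50 went from 88.2 and 106 CPM to 15.8 and 27.1 CPM (log2 -2.18 ± 0.31, adjusted p = 0.0013). Jcr4S09899.10 went from 209 and 127 CPM to 44.0 and 49.2 CPM (log2 -1.85 ± 0.28, adjusted p = 0.0017), and Jcr4S00216.90 from 254 and 274 CPM to 100.1 and 97.9 CPM (log2 -1.42 ± 0.20, adjusted p = 0.0014). Their log2 CPM ran in parallel over the 22 libraries, with Pearson's r of 0.953 to 0.983 between pairs, a description in which organ and depth are shared.

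XTH 22 (Jcr4S02117.10) and XTH 23-like rose in severe root, whereas the other gene named XTH 22 (Jcr4S00292.60) fell, from 27.5 and 36.9 CPM to 13.4 and 15.1 CPM (log2 -1.17 ± 0.41, adjusted p = 0.047). The Arabidopsis namesake of XTH 22 is TCH4, a gene induced by touch. XTH 22 (Jcr4S02117.10) stood at 4.06 and 3.41 CPM in late controls and at 86.0 and 70.6 CPM under severe drought, 20.9-fold higher (log2 4.39 ± 1.05, adjusted p = 0.012). Without replicate 1 or replicate 2 of the late controls its adjusted p was 0.071 and 0.08. XTH 23-like (Jcr4S02117.30), the gene with the large rise in leaf, stood at 0.48 and 0.265 CPM in late controls and at 14.3 and 11.3 CPM under severe drought (log2 5.08 ± 0.31, adjusted p = 6e-05). The size of this rise depends on the control day, since the gene was called lower in the late than in the day 13 root controls. Scaled over all 22 libraries, the day 13 root controls stood at 3.64 and 4.21 CPM and the late ones at 0.485 and 0.269 CPM.

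**Figure D3:**
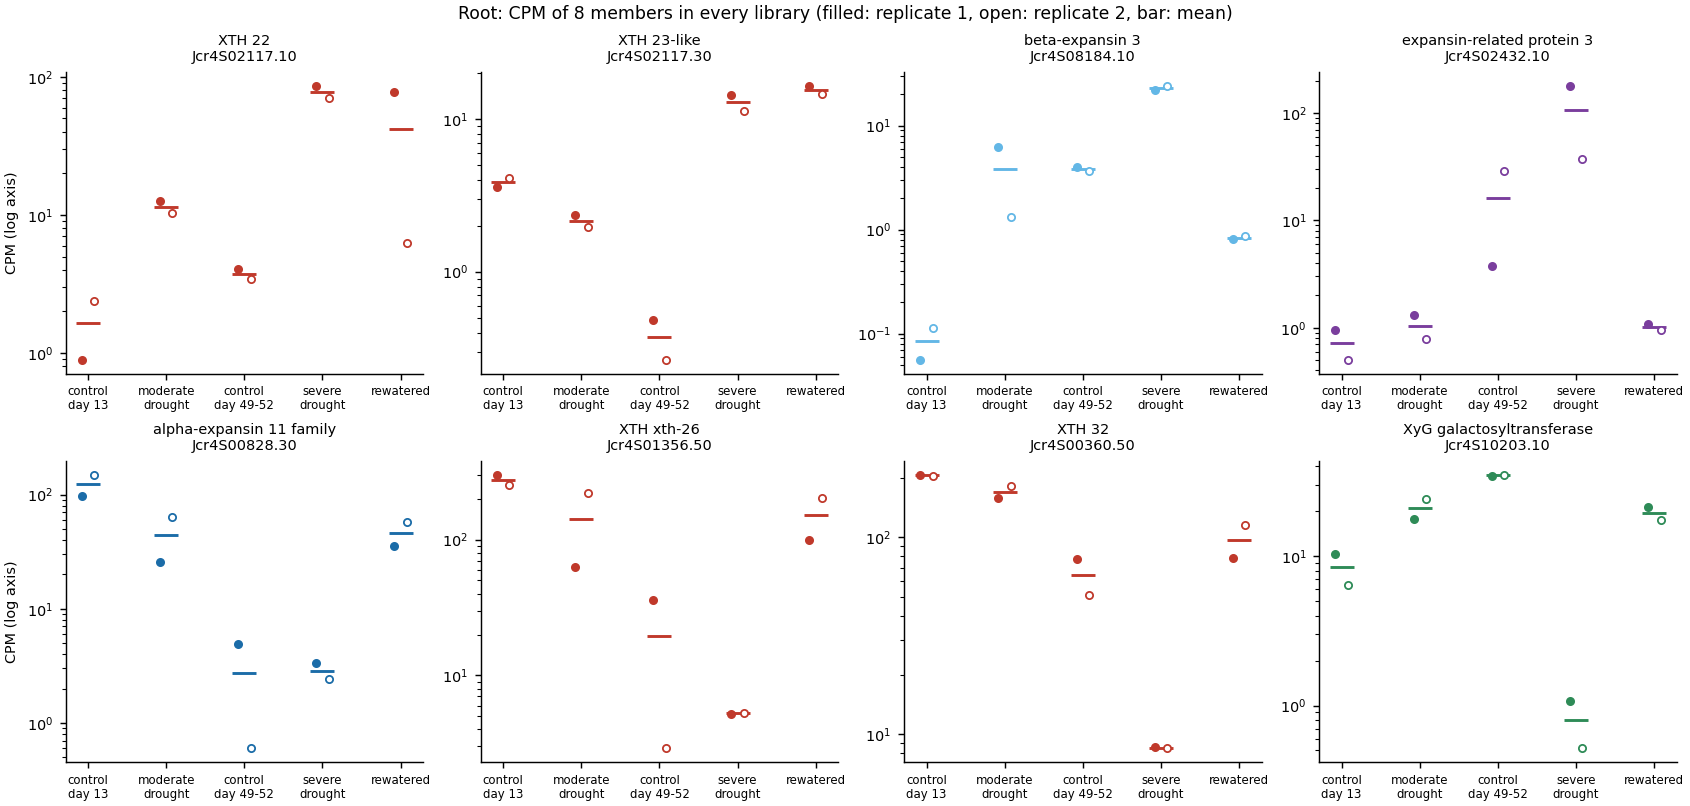
CPM (vertical log axis) of 8 members in each root library, with the groups along the horizontal axis; filled points are replicate 1, open points replicate 2 and bars the mean. XTH 22 and XTH 23-like are high under severe drought and alpha-expansin 11 and XTH 26 are high at day 13 and low in the late controls; in rewatered root the libraries of XTH 22 lie apart, at 77.8 and 6.23 CPM.

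Among root expansins, alpha-expansins were lower in 4 of 14 and higher in 1, against 25.6% lower and 19.5% higher over all genes. Beta-expansins were lower in 1 of 3 and higher in 2. Expansin-like or related genes were higher in 2 of 6 and lower in 0, with 4 of these 6 at an unadjusted p under 0.05. Alpha-expansin 1 in its root form (Jcr4S07195.20) fell from 13.4 and 22.5 CPM to 0.934 and 1.01 CPM (log2 -4.20 ± 0.43, adjusted p = 0.00033). The 2 alpha-expansin 15 genes parted: Jcr4S00446.80 went from 7.93 and 9.11 CPM to 1.72 and 1.88 CPM (log2 -2.24 ± 0.23, adjusted p = 0.00034), and Jcr4S00313.140 from 1.29 and 0.863 CPM to 5.02 and 3.92 CPM (log2 2.04 ± 0.35, adjusted p = 0.0029). The rise of Jcr4S00313.140 did not pass the threshold against the day 13 controls (log2 0.82, adjusted p = 0.07).

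The beta-expansins parted in the same way. Beta-expansin 3 (Jcr4S00098.130), the form abundant in leaf, fell from 16.2 and 16.4 CPM to 4.20 and 5.80 CPM (log2 -1.71 ± 0.32, adjusted p = 0.0044). The root form Jcr4S08184.10 rose from 4.01 and 3.69 CPM to 22 and 24 CPM (log2 2.58 ± 0.60, adjusted p = 0.01), and Jcr4S02502.50 from 0.813 and 0.73 CPM to 3.34 and 3.64 CPM (log2 2.17 ± 0.56, adjusted p = 0.016). Without replicate 1 or replicate 2 of the late controls the adjusted p of Jcr4S08184.10 was 0.06 and 0.067 and that of Jcr4S02502.50 was 0.08 and 0.092; without replicate 2 of severe drought the latter was 0.064. Whether these genes share reads as near-identical copies was not tested, and their values are uncertain to that extent. Expansin-related protein 3 (Jcr4S02432.10) reached 178 and 37 CPM under severe drought, against 3.77 and 28.5 CPM in late controls, and did not pass (log2 2.74 ± 0.98, adjusted p = 0.054).

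Galactosyltransferases were lower in 5 of 7 tested genes in severe root and higher in 0, with no further one at an unadjusted p under 0.05. Over all genes 25.6% were lower and 19.5% higher. The root form Jcr4S10203.10 stood at 34.1 and 35.1 CPM in late controls and at 1.08 and 0.516 CPM under severe drought, 43.3-fold lower (log2 -5.44 ± 0.41, adjusted p = 0.00012). The broadly expressed galactosyltransferase Jcr4S00209.70 stood at 59.9 and 55.5 CPM in late controls and at 58.8 and 54.2 CPM under severe drought. Jcr4S05415.70 and Jcr4S01961.10 had 3 reads each over both severe libraries and 34 and 39 in the late controls, so no fold is given. The call on Jcr4S05415.70 was lost without replicate 1 (adjusted p = 0.16) or replicate 2 (0.11) of severe drought and without replicate 1 of the late controls (0.18), and in both limma fits (0.7 and 0.66). That on Jcr4S01961.10 was lost against the day 13 controls (0.072) and in both limma fits (0.06 and 0.05). Beside these falls, the casparian strip genes were called lower in 2 of 2, and the dividing-cell genes lower in 37 of 77 and higher in 4, with sums of 2618 and 2546 CPM in late controls and 1548 and 1600.2 CPM under severe drought. The photosynthetic genes were higher in 8 of 16 and lower in 2, with sums of 69.9 and 101 CPM in late controls and 100.5 and 136 CPM under severe drought, which overlap. The pollen list was lower in 7 of 15 and higher in 1. The part of these in the root results was not tested.

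After rewatering, more root members were called higher than lower. Against severe drought 25 of 62 were higher and 6 lower, with 27.4% higher and 22% lower over all genes, and the median log2 change was 0.77 for the members and 0.06 for all genes. Without one library at a time the number higher stayed between 17 and 23. XTHs were higher in 8 of 24 and lower in 0, galactosyltransferases higher in 4 of 7 and lower in 0, and alpha-expansins higher in 7 of 14 and lower in 2. The casparian strip genes were higher in 2 of 2, at 63.9 and 96.8 CPM. In the same comparison the dividing-cell genes were higher in 45 of 77 and lower in 6, with sums of 2781 and 3414 CPM in rewatered root against 1548 and 1600.2 CPM under severe drought. The pollen list was higher in 10 of 15 and lower in 1, with sums of 1085 and 594 CPM against 248 and 281 CPM. The photosynthetic genes were higher in 2 of 16 and lower in 11, with sums of 56.3 and 62.1 CPM against 100.5 and 136 CPM. Their part in the members' changes in root was not tested. XTH 8-like (Jcr4S03519.50) rose from 2.61 and 2.39 CPM to 46.1 and 69.9 CPM (log2 4.53 ± 0.56, adjusted p = 0.00053) and XTH 32 (Jcr4S00360.50) from 8.58 and 8.43 CPM to 78.2 and 116 CPM (log2 3.52 ± 0.27, adjusted p = 9.2e-05). Galactosyltransferase Jcr4S10203.10 rose to 21.3 and 17.4 CPM (log2 4.60 ± 0.40, adjusted p = 0.00013).

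The 6 members lower after rewatering were expansins. Expansin-related protein 3 (Jcr4S02432.10) fell to 1.08 and 0.949 CPM (log2 -6.73 ± 1.21, adjusted p = 0.0029), and beta-expansin 3 (Jcr4S08184.10) fell to 0.807 and 0.858 CPM (log2 -4.78 ± 0.67, adjusted p = 0.00093). XTH 22 and XTH 23-like were not among them. XTH 23-like (Jcr4S02117.30) stood at 16.4 and 14.6 CPM after rewatering, within 1.21-fold of severe drought (log2 0.28 ± 0.25, adjusted p = 0.39), whereas in rewatered leaf it was at 0.219 and 0.336 CPM. XTH 22 (Jcr4S02117.10) was at 77.8 CPM in 1 rewatered library and at 6.23 CPM in the other.

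Against the late controls, rewatered root had 7 members higher and 4 lower of 62, where 8.53% of all genes were higher and 8.44% lower. Without replicate 2 of the late controls 0 were called in either direction, and without replicate 1 of these controls 1 was lower. Without replicate 2 of the rewatered libraries 2 were higher and 0 lower, and without replicate 1 of them 2 were lower. With the day 13 controls instead 0 were called, where 0.0241% of all genes were higher and 0.016% lower. Of the 11 genes, 6 changed direction. XTH 23-like (Jcr4S02117.30) kept its direction: its log2 change was 5.36 ± 0.32 (adjusted p = 0.0052), 0.053 without replicate 2 of the late controls, and 2.02 against day 13 (adjusted p = 0.062). Alpha-expansin 11 (Jcr4S00828.30) turned, from 4.07 ± 0.89 (adjusted p = 0.024) to -1.41 (adjusted p = 0.34).

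This turn followed a difference between the watered root controls themselves. Of 62 members 18 were lower in the late than in the day 13 controls and 7 higher, against 15.3% lower and 15.6% higher over all genes. The number lower was 10 without replicate 1 and 4 without replicate 2 of the late controls, and the number higher was 3 to 4 in every such test. Alpha-expansin 11 (Jcr4S00828.30) stood at 97.0 and 149.9 CPM at day 13 and at 4.90 and 0.597 CPM in late controls (log2 -5.48 ± 0.95, adjusted p = 0.0073). Alpha-expansin 12 (Jcr4S17116.20) stood at 37.3 and 31.6 CPM at day 13 and at 1.61 and 0.221 CPM in late controls (log2 -5.21 ± 1.11, adjusted p = 0.013, and 0.074 without replicate 2 of the late controls). XTH 26 (Jcr4S01356.50), whose Arabidopsis namesake acts in root hairs, stood at 301 and 251 CPM at day 13 and at 36.0 and 2.90 CPM in late controls (log2 -3.82 ± 1.09, adjusted p = 0.034). Its call was lost without replicate 1 (0.07) or replicate 2 (0.08) of day 13 and without replicate 2 of the late controls (0.075).

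Alpha-expansin 7 (Jcr4S00170.20), named like the root hair expansin of Arabidopsis, had 4.28 and 1.87 CPM at day 13, 0.443 and 0.177 CPM in late controls and 1 read over both severe libraries; it had 1.08 and 2.92 CPM after rewatering. All 4 genes were lower in the late controls than in rewatered roots in both libraries. The casparian strip genes followed the same order, with 56.6 and 81.4 CPM at day 13, 10.8 and 2.63 CPM in late controls and 63.9 and 96.8 CPM after rewatering. The part of these marker changes in the difference between the controls was not tested. Beta-expansin 3 (Jcr4S08184.10) had the opposite order, 0.0558 and 0.112 CPM at day 13 and 4.01 and 3.69 CPM in late controls (log2 5.56 ± 0.82, adjusted p = 0.0051).

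**Figure D4:**
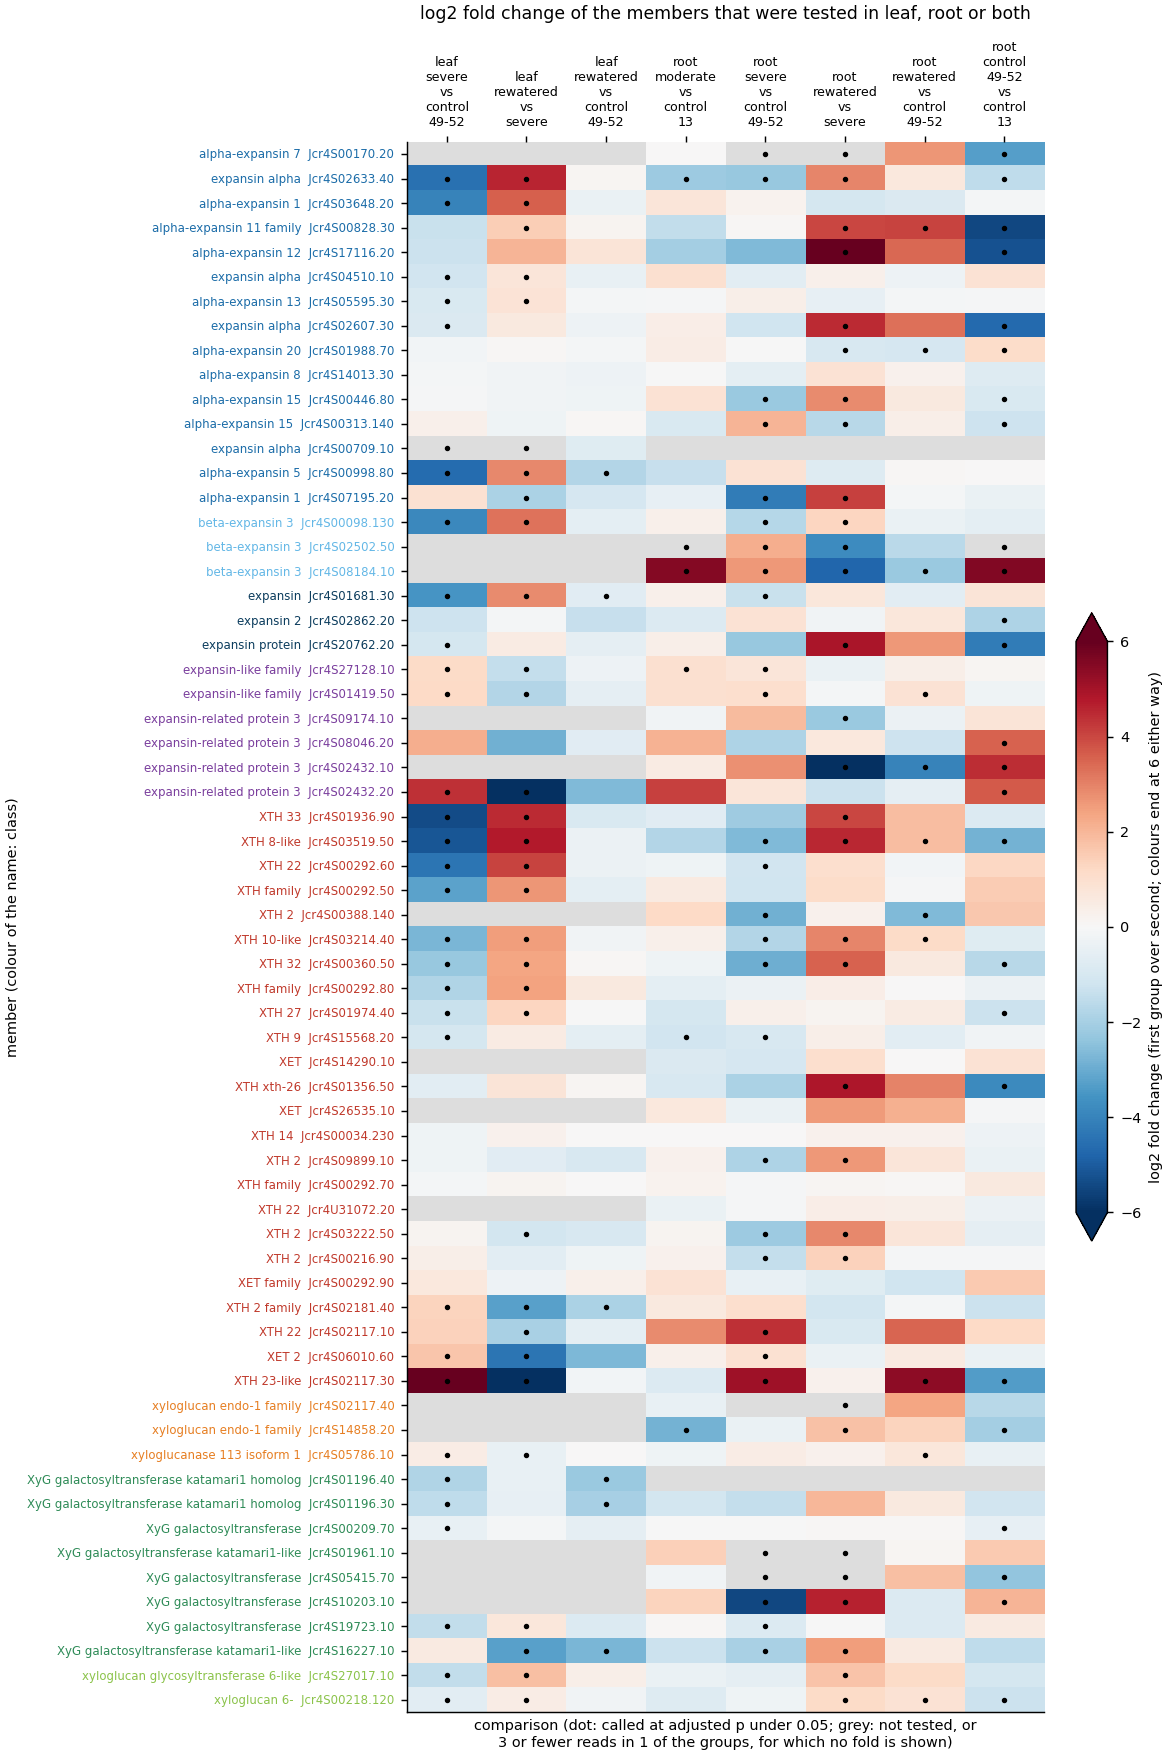
Log2 fold change (colour; first group over second) of the 64 members tested in leaf, root or both (rows, grouped by class) in 8 comparisons (columns); a dot marks a call at adjusted p under 0.05, and grey marks genes not tested or with 3 or fewer reads in 1 of the groups. Leaf falls under severe drought and rises on rewatering face each other in the first columns, with 25 and 20 calls.

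The calls under severe drought were compared between the organs, whose libraries are separate. Of 48 members tested in both, 9 were lower in both organs, 4 higher in both and 0 called in opposite directions. The 9 shared falls are 39.1% of the 23 falls in leaf and 60.0% of the 15 in root. Over all 22218 genes tested in both organs, shared falls were 40.4% of the falls in leaf and 51.0% of those in root, and 5.9% of genes were called in opposite directions. Of those genes 11.9% were lower in both organs and 10.9% higher in both. The 4 shared rises were XTH 23-like (Jcr4S02117.30), xyloglucan endotransglycosylase 2 (Jcr4S06010.60) and the expansin-like genes Jcr4S27128.10 and Jcr4S01419.50. In the root the calls on the last 3 were lost without replicate 1 of the late controls (adjusted p of 0.16, 0.078 and 0.061). A direct test of the difference called 13 of 64 members lower and 8 higher in leaf than in root. Over all genes 18.6% were lower and 17.1% higher, so the shares of these 64 are near or below the background. Among the 48 tested in both organs, 13 (27.1%) were lower and 7 (14.6%) higher, against 21.2% and 18% of all such genes.

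Among the single genes, alpha-expansins 5 and 1 had the lowest leaf effects relative to root. In root, alpha-expansin 5 (Jcr4S00998.80) stood at 1.05 and 1.04 CPM in late controls and at 1.99 and 1.88 CPM under severe drought, and the leaf effect was lower by log2 -5.53 ± 0.41 (adjusted p = 1.6e-07). Alpha-expansin 1 (Jcr4S03648.20) stood at 24.6 and 22.3 CPM and at 26.5 and 27.1 CPM in the same root groups (difference log2 -4.20 ± 0.62, adjusted p = 0.00013). In both genes the severe root libraries lay above the late root controls, but neither change in root was called. XTH 23-like (Jcr4S02117.30) differed in size but not in direction (difference log2 3.08 ± 0.44, adjusted p = 8.7e-05).

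**Figure D5:**
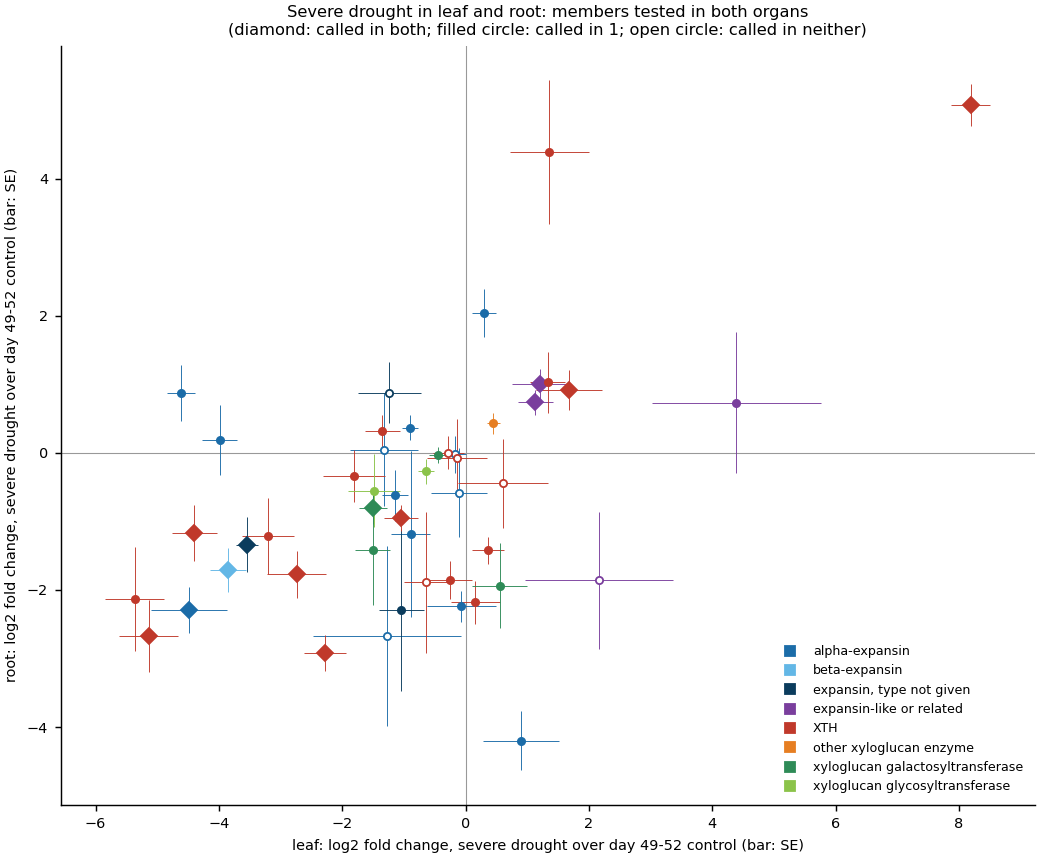
Log2 fold change under severe drought in leaf (horizontal axis) and in root (vertical axis), each against its late control, for the 48 members tested in both organs; bars are SE, colours are classes, diamonds are called in both organs, filled circles in 1 and open circles in neither. The 9 shared falls lie lower left and the 4 shared rises upper right.

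Other wall and growth genes were counted in the same way under severe drought, to be read against 29.5% lower and 27.6% higher over all genes in leaf and 25.6% and 19.5% in root. Cellulose synthase and cellulose synthase-like genes were lower in 12 of 25 and higher in 6 in leaf (median log2 -0.52) and lower in 18 of 26 and higher in 4 in root (-1.23). Genes described as alpha-xylosidases, beta-galactosidases or alpha-L-fucosidases were listed because some such enzymes trim xyloglucan, but the descriptions do not give their substrates. They were lower in 14 of 30 and higher in 10 in leaf (-0.33) and lower in 15 of 35 and higher in 5 in root (-1.10). SAUR genes, an auxin-responsive family tied to acid growth, were lower in 4 of 9 and higher in 2 in leaf (0.25), although their sum went from 109.7 and 130 CPM to 23.5 and 28.2 CPM, and lower in 5 of 12 and higher in 0 in root (-1.88), with 7 of the 12 at an unadjusted p under 0.05. Plasma membrane proton pumps were lower in 1 of 5 and higher in 2 in leaf (-0.23) and lower in 3 of 6 and higher in 1 in root (-0.87). Endoglucanases were lower in 2 and higher in 2 in both organs, of 7 tested in leaf (0.08) and 8 in root (-0.27), counts near the shares of all genes. Their sum nevertheless went from 586 and 391 CPM in late controls to 244 and 234 CPM under severe drought in leaf. In root it went from 444 and 446 CPM to 289.9 and 296 CPM.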

How the data were processed

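The authors deposited raw whole-number counts of reads on each gene model, and RPKM values, for the same 22 libraries. The deposited RPKM values carry 1 decimal, start at 1.0 (all cells with 0 reads) and have near-equal column sums; their normalization is not stated, so they served only to compare levels between genes and, on a log2 scale, as an alternative. Per the labels' protocols, libraries were made from 400 ng of RNA with an unstranded kit and read as single 50 bp ends, so reads of a gene and an antisense partner cannot be told apart, nor those of near-identical copies. Aligner, counter and genome build: not given in the sources used here. No gene positions or sequences were used.

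Counts were fitted in R 4.3.3 with edgeR 4.0.16 (filterByExpr, TMM, robust quasi-likelihood F test, two-sided) over the 12 leaf libraries (23200 genes), the 10 root libraries (24924) or all 22 (25939, for comparisons between organs). CPM are counts over TMM-scaled totals. No fold is given against a group with 1 to 3 reads; reads carry no molecular identifiers, so limits cover counting error only. Replicate libraries differed by more than counting error in each of the 11 groups (chi-square per degree of freedom 11.3 to 145.2). The code was tested on simulated data. Alternatives were DESeq2 1.42.0, limma 3.58.1 on log2(RPKM + 1) and log2(RPKM + 0.1), no filter, a mean of at least 1 CPM, the replicate block, 1 fit over all libraries, the other control day and each library left out, which leaves a lone library assumed to vary like the other groups.

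Named genes were, per comparison, up to 8 rises and 8 falls among called genes whose groups did not overlap, the 5 expansins and 5 XTHs with the highest RPKM per organ, and all tested glycosyltransferases. Lists of other wall genes and markers were patterns on the descriptions. Members and lists were chosen with earlier results of these data known.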

Additional observations from a re-analysis of the deposited data

Results flagged for a closer look

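The effect of severe drought differed between leaf and root for 15 of the genes named that passed the filter within both organs. The test was of the difference itself over all 22 libraries (edgeR's quasi-likelihood test, log2 leaf effect minus root effect, adjusted over all genes). These genes were named as the largest rises and falls called by this same test, so their number follows from that choice. The shares called among members and among all genes are given with the comparison of the organs above. No group had the 4 libraries that a test for a single outlying library needs. The leaf effect was lower for alpha-expansin 5 (Jcr4S00998.80, -5.53 ± 0.41, adjusted p = 1.6e-07), alpha-expansin 1 (Jcr4S03648.20, -4.20 ± 0.62, adjusted p = 0.00013), XTH 33 (Jcr4S01936.90, -3.27 ± 0.93, adjusted p = 0.013) and XTH 22 (Jcr4S00292.60, -3.25 ± 0.57, adjusted p = 0.00051). It was also lower for XTH 8-like (Jcr4S03519.50, -2.49), Jcr4S01681.30 (-2.23), Jcr4S02633.40 (-2.21) and beta-expansin 3 (Jcr4S00098.130, -2.17). The leaf effect was higher for alpha-expansin 1 in its root form (Jcr4S07195.20, 5.08 ± 0.74, adjusted p = 0.0001), which is low in leaf. It was higher as well for XTH 23-like (Jcr4S02117.30, 3.08), Jcr4S16227.10 (2.47), the XTH 2 genes Jcr4S03222.50 (2.32), Jcr4S00216.90 (1.75) and Jcr4S09899.10 (1.57), and alpha-expansin 15 (Jcr4S00446.80, 2.15). With the day 13 controls the difference for XTH 33 was -0.11 (adjusted p = 0.96), for Jcr4S09899.10 0.06 (adjusted p = 0.96), for Jcr4S02633.40 -0.94 (adjusted p = 0.36) and for XTH 8-like 1.14 (adjusted p = 0.26). The calls on Jcr4S16227.10, Jcr4S00446.80 and these 4 were also lost without 1 or more single libraries.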

How the results depend on the processing

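The counts of members called, higher then lower, moved by more than 1.5 times as follows. Without the filter on low counts they were 3 and 5 in moderate leaf, 5 and 4 between the leaf controls, 10 and 11 in moderate root and 21 and 8 for rewatered root against controls. There 13 were lower for rewatered leaf against controls, 13 higher in severe root, 10 lower for rewatered against severe root and 13 higher between the root controls. The stricter filter gave 4 higher in severe leaf, 4 lower for rewatered against severe leaf and 1 lower between the leaf controls. The other control day gave 11 higher in severe leaf, 1 higher for rewatered leaf, 0 and 0 for rewatered root, 19 higher in leaf than root and 15 higher for the organ difference. DESeq2 gave 3 and 1 between the leaf controls, 7 and 8 in moderate root and 15 higher for rewatered root against controls. One fit over all 22 libraries gave 0 and 1 between the leaf controls, 9 lower in moderate root, 14 higher in severe root, 10 lower for rewatered against severe root, 12 higher against controls and 11 higher between the root controls. limma with either pseudocount gave 7 lower for rewatered against severe leaf, 1 lower between the leaf controls, 1 higher in moderate root and 22 lower for the organ difference; with 1 it gave 13 lower in severe root, and with 0.1 it gave 2 lower for rewatered root against controls and 4 higher between the root controls. The cause was not tested. Restricting the comparisons between organs to genes tested within both, chosen after seeing the data, gave 9 and 20 for leaf against root and 7 and 13 for the organ difference.

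The replicate numbers did not pair the libraries, since deviations of same-numbered libraries correlated at -0.238 to 0.275 over 15 pairs of leaf groups and -0.224 to 0.201 over 10 of root groups. Under the replicate block 0 members were higher between the leaf controls, and 4 were higher and 2 lower for rewatered root against controls.

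Leaving out each library in turn gave, higher then lower, 0 to 0 and 0 to 1 in moderate leaf, 4 to 8 and 21 to 23 in severe leaf, 16 to 18 and 6 to 14 for rewatered against severe leaf, 0 to 0 and 1 to 7 against controls, and 0 to 2 and 0 to 1 between the leaf controls. In root it gave 0 to 5 and 0 to 6 for moderate drought, 2 to 7 and 13 to 17 for severe drought, 17 to 23 and 4 to 7 for rewatered against severe, 0 to 5 and 0 to 2 against controls, and 3 to 4 and 4 to 15 between the controls. For leaf against root it gave 11 to 11 and 24 to 28, and for the organ difference 6 to 8 and 10 to 12. Directions reversed only with the other control day: rewatered root against controls became -1.41 for Jcr4S00828.30, -0.97 for Jcr4S03519.50, -0.41 for Jcr4S00218.120, 0.44 for Jcr4S02432.10, 3.35 for Jcr4S08184.10 and 0.08 for Jcr4S01988.70, and the organ difference 1.14 for Jcr4S03519.50. Of 944 gene values under other settings 860 kept direction and side of the threshold; with 1 library left out 427 of 588 did, and 161 lost the call.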

Other observations

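Genes whose descriptions name these families in other words fall outside the rule and were chosen after their descriptions and values were seen; they are given as values. The gene described as brassinosteroid-regulated protein BRU1 (Jcr4S01342.50), a name used for an XTH of soybean, stood at 36.4 and 46.4 CPM in late leaf controls, at 5.08 and 2.77 CPM under severe drought and at 43.9 and 45.5 CPM after rewatering. In root it stood at 529.7 and 550.3 CPM at day 13, at 108 and 86.5 CPM in late controls and at 26.1 and 33.1 CPM under severe drought. A second BRU1 gene (Jcr4S13217.10) stood at 11.3 and 12.1 CPM in late leaf controls and at 0.254 and 0.195 CPM under severe drought.

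Major pollen allergen Ory s 1, a beta-expansin of rice pollen, gave its name to 3 further gene models. Their replicate libraries differed widely in rewatered root: Jcr4S03579.20 stood at 485 and 1.90 CPM and Jcr4S02040.40 at 64.4 and 5.37 CPM.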
